A study of Brassica napus with 12 samples.

Results

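Among the abundant transcripts of rapeseed seedlings, 169 genes were about 4-fold higher after a day under water, by a similar amount in a pool of submergence-resistant and a pool of submergence-susceptible germplasm. They were chosen from the values themselves, so the size of the change and its likeness between the pools are bounded by that choice. A gene had to lie on an A or C chromosome by its identifier and to have a change of at least 1.5 and below 3 in both pools. The change is the mean log2(RPKM + 1) of submerged minus control libraries of a pool. RPKM is the read number of a gene divided by its length and by the depth of the library. The mean RPKM also had to be at least 80 over the 6 submerged libraries and below 300 over the 6 control libraries. The 169 members come from 96921 genes on A and C chromosomes and from 109614 genes in all.

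*Brassica napus*, rapeseed, is an oil crop that carries 2 subgenomes, A and C. RNA came from whole young seedlings of 4 groups of 3 biological replicates each, namely submerged and control seedlings of the resistant pool and submerged and control seedlings of the susceptible pool. Each sample mixed equal amounts of 5 germplasm, which the labels do not name and which cannot be told apart within a pool. All seedlings grew on moist paper with 16 h of light at 25 °C and 8 h of darkness at 22 °C until the first true leaf formed. The submerged groups then spent 24 h fully covered with distilled water. Polyadenylated RNA was sequenced.

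Water slows the diffusion of gases into plant tissue, so submerged cells run short of oxygen and, in dim or dark water, of the products of photosynthesis. Plants then depend more on glycolysis and fermentation for their energy, and in Arabidopsis a group of ethylene response factors that oxygen marks for breakdown becomes stable and switches on a core set of hypoxia genes. The identifiers of the deposited table matched 0 of the 123214 genes of the reference table used here, so the members are given by identifier. Which of them belong to fermentation, to the hypoxia core or to any other pathway was not analysed here, and the seedling tissue was not checked against marker genes. In whole seedlings, fewer cells of a type and less RNA per cell cannot be told apart.

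Summed RPKM was close to even across the libraries, between 828260 and 855333. Relative depth, read from the spacing of the lowest values, ran from 0.638 to 1 of that of the first resistant control. The number of reads behind a value is unknown, and no counting interval is given for that reason. For the members, the second and the third susceptible control stood apart from each other, as described further on. The median change of the members in the susceptible pool, 1.99, was 2.10 without the second, 1.86 without the third and 1.94 without both, and 155, 140 and 154 members then kept a susceptible change within the limits. The replicates are called biological by the labels. With 5 germplasm mixed in each, p-values measure the spread between mixtures, and a difference between pools cannot be ascribed to resistance rather than to the germplasm chosen.

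The members were a small corner of the abundant genes. Both level limits were met by 1315 genes, and 169 of them (12.9%) also had a change within the limits in both pools. A further 89 reached a change of 1.5 in resistant but not in susceptible seedlings, and 60 did so in susceptible but not in resistant seedlings. In 63 genes the change was at least 1.5 in both pools and 3 or more in at least 1 of them, and 244 genes had a change below 0 in both.

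**Figure D1:**
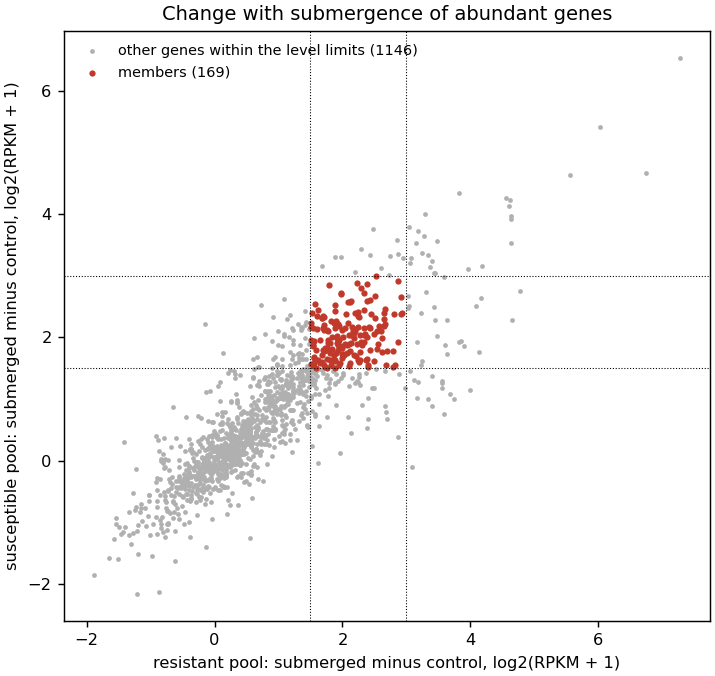
Change with submergence of the 1315 genes within the level limits, in log2(RPKM + 1), resistant pool across and susceptible pool upward. Each point is a gene, dotted lines mark the limits of 1.5 and 3, and the 169 members fill the square between them by construction, with genes on all of its sides.

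The limits lie in a continuous range of values. At the lower limit of the resistant change, BnaC05G0470300ZS was just inside at 1.51 and BnaA03G0555800ZS just outside at 1.4997. For the susceptible change these were BnaA03G0127100ZS at 1.502 and BnaC03G0479400ZS at 1.494. The upper limit separated BnaA04G0255000ZS at 2.93 from BnaA09G0495900ZS at 3.02 in the resistant pool, and BnaA06G0417500ZS at 2.99 from BnaC04G0346700ZS at 3.02 in the susceptible pool. At the level limit in submerged seedlings, BnaC04G0500500ZS had 81.4 RPKM and BnaC03G0480600ZS 79.8 RPKM. No gene was left out by the control limit alone, and the highest member there was BnaC03G0671900ZS at 269.0 RPKM.

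Levels and changes of the members follow from the rule and are given as a description. Mean RPKM of a member in the resistant pool ran from 21.3 to 934 in submerged seedlings, with a median of 127, against 5.604 to 307 in controls, with a median of 29.8. In the susceptible pool it ran from 34.8 to 731 in submerged seedlings, with a median of 146, against 5.73 to 231 in controls, with a median of 35.4. Ranked by mean RPKM among the A and C genes, 115 of the 169 members were among the 1000 highest in submerged seedlings, against 8 in controls. The median rank was 729 in submerged and 4615 in control seedlings, and the lowest-placed member in controls ranked 11991, out of 96921 genes. The members were thus among the more highly expressed genes without submergence too, though at lower ranks than under water. In all 169, the 3 submerged libraries lay above the 3 control libraries in both pools, as they did in 10.3% of all tested genes, a contrast that the rule itself uses.

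The median change was 2.04 for resistant and 1.99 for susceptible seedlings. Over all 57391 tested genes the median change was -0.22 and -0.19 on the same scale. With median ratio scaling, which brings the medians of all tested genes to -0.04 and 0.02, the members' medians were 2.27 and 2.26.

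The most abundant member in submerged seedlings was BnaC03G0671900ZS on chromosome C03. It had 858, 1086 and 859 RPKM in resistant submerged seedlings, against 364, 234 and 323 RPKM in resistant controls. In the susceptible pool it had 751, 902 and 540 RPKM in submerged seedlings, against 199, 222 and 271 RPKM in controls. Every submerged library was thus well above every control, while the pools overlapped under submergence. The change was 1.62 ± 0.23 for resistant and 1.64 ± 0.23 for susceptible seedlings (SE of the limma fit).

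BnaA08G0198600ZS was next, with 754, 684 and 704 RPKM in resistant submerged seedlings, against 200, 156 and 183 RPKM in resistant controls. Its susceptible libraries had 612, 539 and 641 RPKM under water, against 166, 170 and 230 RPKM in controls. The resistant submerged libraries were all above the susceptible submerged ones, but by less than the fit could call (log2 difference 0.26 ± 0.16, SE; limma adjusted p = 0.291).

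The largest mean change belonged to BnaA01G0058600ZS. In the resistant pool it had 168, 109 and 171 RPKM in submerged seedlings, against 16.2, 29.6 and 14.7 RPKM in controls. Susceptible seedlings had 130, 302 and 171 RPKM under water, against 26.8, 41.7 and 12.1 RPKM in controls. The spread between replicates was wide in both susceptible groups, and the change was 2.87 ± 0.44 for resistant and 2.93 ± 0.44 for susceptible seedlings (SE). The next was BnaC01G0275000ZS, at 263 ± 29.1 RPKM in resistant submerged seedlings and 34.3 ± 7.03 RPKM in resistant controls (SD, n = 3 each). Its susceptible levels were 349 ± 97.0 RPKM in submerged seedlings and 59.7 ± 32.4 RPKM in controls (SD, n = 3 each).

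At the other end, BnaC05G0470300ZS had 192, 171 and 171 RPKM in resistant submerged seedlings, against 70.2, 50.1 and 67.3 RPKM in resistant controls. It had 266, 233 and 204 RPKM in susceptible submerged seedlings, against 92.2, 77.1 and 67.5 RPKM in susceptible controls. With changes of 1.51 and 1.56 this gene and BnaA10G0190000ZS, at 1.58 and 1.503 in the resistant and susceptible pool, had the smallest mean changes. BnaA10G0190000ZS was at nearly the same level in both pools, 124 ± 21.6 and 126 ± 11.0 RPKM in resistant and susceptible submerged seedlings and 40.8 ± 7.69 and 44.3 ± 9.15 RPKM in resistant and susceptible controls (SD, n = 3 each). The lowest members by level, BnaC04G0500500ZS and BnaC06G0063200ZS, averaged 81.4 and 81.8 RPKM over the submerged libraries. BnaC04G0500500ZS had 74.0, 76.6 and 53.5 RPKM in resistant submerged seedlings, against 9.74, 15.3 and 11.8 RPKM in resistant controls, and 97.9, 94.0 and 92.4 RPKM in susceptible submerged seedlings, against 30.7, 46.2 and 17.8 RPKM in susceptible controls. Its resistant libraries lay below the susceptible ones under both treatments. At 68.0 RPKM in resistant and 94.8 RPKM in susceptible submerged seedlings, it passed the level limit through the susceptible pool, so this is a description.

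**Figure D2:**
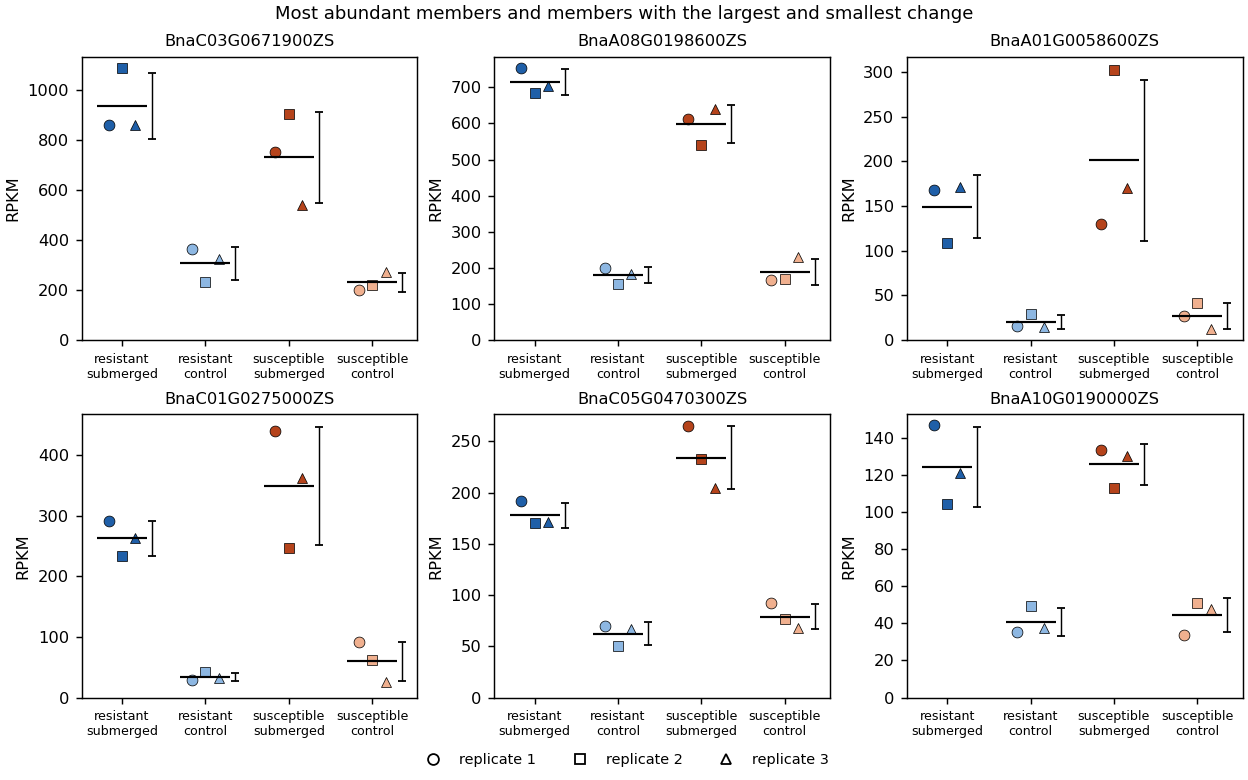
RPKM of 6 members in each library: the most abundant pair, the pair with the largest and the pair with the smallest mean change. Symbols mark the replicate, horizontal lines the mean and bars 1 SD (n = 3). In each gene the submerged libraries stand above the controls of their pool, and BnaA01G0058600ZS spreads widely in susceptible submerged seedlings, between 130 and 302 RPKM.

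The pools' changes were close for most members. Because the rule holds both changes between 1.5 and 3, their gap cannot exceed 1.5, and it was not tested. The change in the resistant minus that in the susceptible pool had a median of 0.06 and ran from -1.07 to 1.27. It was under 0.5 in size in 124 members, positive in 92 and negative in 77. In 4 members the change was larger by 1 or more in the resistant pool, and in 1 member in the susceptible pool.

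The widest positive gap was in BnaC07G0497100ZS, with a change of 2.78 for resistant and 1.52 for susceptible seedlings. It had 128, 95.4 and 98.1 RPKM in resistant submerged seedlings, against 17.1, 14.9 and 12.2 RPKM in resistant controls. Susceptible seedlings had 72.6, 127 and 95.7 RPKM under water, against 32.4, 30.9 and 35.6 RPKM in controls. The pools overlapped under water, and the resistant controls lay below the susceptible controls in 3 of 3 libraries (log2 difference -1.12 ± 0.20, SE). This difference is part of the gap that the gene was picked for, and no p is given. BnaA03G0212400ZS followed, with changes of 2.81 and 1.55 in the resistant and susceptible pool and levels of 416 ± 120 and 298 ± 100.2 RPKM in their submerged seedlings (SD, n = 3 each). Its controls averaged 59.5 ± 23.4 RPKM in resistant and 99.7 ± 30.1 RPKM in susceptible seedlings.

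The widest negative gap was in BnaC09G0408900ZS, with a change of 1.78 for resistant and 2.86 for susceptible seedlings. It had 324, 341 and 382 RPKM in resistant submerged seedlings, against 98.8, 135 and 75.7 RPKM in resistant controls. In the susceptible pool it had 539, 638 and 639 RPKM under water, against 90.9, 128 and 48.1 RPKM in controls. Here the pools were apart under water and overlapped in controls, and the difference in submerged seedlings, -0.79 ± 0.31 (SE), is part of that gap and is given with no p. BnaA10G0168100ZS had changes of 1.57 and 2.54, with 268 ± 55.2 RPKM in resistant and 438 ± 57.6 RPKM in susceptible submerged seedlings (SD, n = 3 each). Its controls averaged 92.2 ± 29.7 RPKM in resistant and 75.3 ± 15.7 RPKM in susceptible seedlings.

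Levels were then compared between the pools. The rule bears on this measure, since it keeps the difference under water within 1.5 of that in controls and sets its level limit on the mean of both pools, which a gene can pass through the pool where it is high. The mean of the submerged libraries reached 80 RPKM in both pools in 140 members, in 6 only in the resistant and in 23 only in the susceptible pool. Members of the last 2 kinds had to differ between the pools, so the counts over all members are a description. Averaged over treatments, 17 members were higher and 46 lower in resistant than in susceptible seedlings (limma, all 12 libraries, Benjamini-Hochberg adjusted p under 0.05). That is 10.1% and 27.2% of the members, against 21.1% of all tested genes called higher and 8.93% called lower. Among the 140 members at 80 RPKM or more in both pools 13 were higher and 35 lower, or 9.29% and 25.0%, with a median difference of -0.23. The members' median difference was -0.27, a ratio of 0.827, and 126 of 169 were below 0. All tested genes had a median of 0.08, and 40.3% of them were below 0. With median ratio scaling the median of all tested genes was -0.0080 and that of the members -0.38. This scaling brings the median over genes near 0 by design, so the first value is no result.

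Other abundant genes had a split of the same direction. Of the 1146 tested genes that met only the level limits, 15.6% had a called difference above 0 and 22.7% one below 0, with a median of -0.05, and the members were not tested against them. With median ratio scaling 11 members were higher and 66 lower, beside 14.5% and 12.9% of all tested genes. The calls of all tested genes thus moved in the same direction as those of the members. With quantile normalization 19 members were higher and 43 lower, beside 15.5% and 10.9% of all tested genes. Without the third susceptible control 16 members were higher and 74 lower, and with the second left out too 17 and 52. In these fits the members' medians were -0.40 and -0.32, and those of all tested genes 0.09 and 0.10. The shares of all tested genes called in them are not given here. Among the 46 lower members, 23 were on A and 23 on C chromosomes. Among the 17 higher members, 8 were on A and 9 on C chromosomes.

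**Figure D3:**
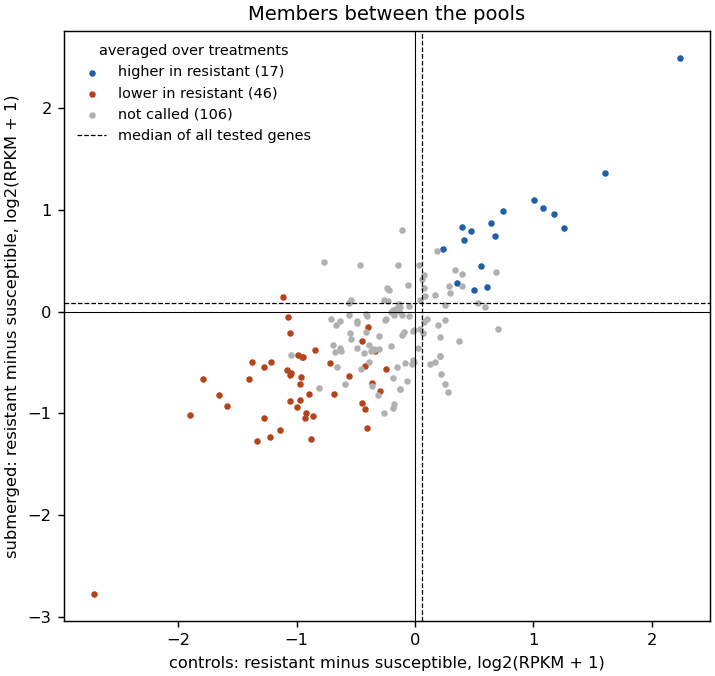
Difference between the pools, resistant minus susceptible in log2(RPKM + 1), of the 169 members in controls (across) and in submerged seedlings (upward). Colours give the call averaged over treatments and dashed lines the median of all tested genes. Most points lie to the lower left of the dashed lines, and 46 members are coloured as called lower, 17 as called higher.

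The members called lower had a median level of 114 RPKM in resistant and 173 RPKM in susceptible submerged seedlings, and of 24.1 RPKM in resistant and 54.9 RPKM in susceptible controls. For the members called higher these medians were 193 RPKM in resistant and 109 RPKM in susceptible submerged seedlings, and 40.3 RPKM in resistant and 25.4 RPKM in susceptible controls.

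By treatment, 13 members were higher and 18 lower in resistant submerged seedlings than in susceptible ones (limma adjusted p under 0.05), against 11.7% and 4.67% of all tested genes. Among the 140 members at 80 RPKM or more in both pools 11 were higher and 12 lower. Over all members these are 7.69% and 10.7%, beside 7.33% and 11.0% among the other abundant genes. The counts depended on single libraries. The fit that omitted the first resistant submerged library called 6 members higher and 6 lower, that without the second 5 and 7, and that without the third 10 and 9. Without the first or the second susceptible submerged library 9 were lower, and without the third 6 were higher. Without the third susceptible control 29 were lower, with the second left out too 32, and 13 were higher and 33 lower when only the submerged libraries were fitted. Median ratio scaling gave 9 higher and 26 lower. Quantile normalization gave 13 higher and 13 lower, and the fit with no filter 13 and 12, so the split of calls was not kept there either. The members' median was -0.27, against 0.08 for all tested genes.

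In controls, 11 members were higher and 27 lower in resistant than in susceptible seedlings (limma adjusted p under 0.05), against 10.9% and 5.02% of all tested genes. Among the 140 members at 80 RPKM or more in both pools 9 were higher and 20 lower. Among the other abundant genes 5.85% were higher and 14.05% lower, and among the members 6.51% and 16.0%. Only 6 members were higher without the first or the third resistant control or the first susceptible control, and 55 were lower without the third susceptible control. With the second and the third susceptible control both left out, 5 were higher and 22 lower. Median ratio scaling gave 6 higher and 33 lower, and quantile normalization 11 and 29. The members' median was -0.24, against 0.06 for all tested genes, and it was -0.13 without the second and -0.40 without the third susceptible control. Both treatments called 9 members higher and 11 lower, and 0 members were called in opposite directions. The rule bounds how far a member's pool difference can shift between treatments, which limits opposite calls. These counts are thus a description, and the matching shares of all tested genes are not given here. Of the 169 members, 102 were called in none of the 3 comparisons.

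BnaA03G0066600ZS, on chromosome A03, was the member with the widest positive difference in all 3 comparisons. It had 205, 163 and 231 RPKM in resistant and 31.6, 43.9 and 28.9 RPKM in susceptible submerged seedlings. Controls had 31.6, 32.7 and 28.2 RPKM in the resistant pool and 5.27, 6.01 and 5.92 RPKM in the susceptible pool. Resistant controls overlapped with susceptible submerged seedlings, while no library of a pool overlapped with the other pool under the same treatment. The log2 difference averaged over treatments was 2.37 ± 0.12 (SE). The gene passed the level limit of 80 RPKM through the resistant pool, since its susceptible submerged libraries averaged 34.8 RPKM, so the difference is a description.

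BnaA06G0381100ZS was the next on this side, with 375, 618 and 285 RPKM in resistant and 165, 207 and 111 RPKM in susceptible submerged seedlings. In controls it had 95.7, 77.3 and 153 RPKM in the resistant and 32.3, 28.1 and 41.8 RPKM in the susceptible pool. The difference averaged 1.49 ± 0.23 (SE; limma adjusted p = 0.000975), and under water it was 1.37 ± 0.33 (limma adjusted p = 0.0185). The call under water was lost without the second resistant submerged library (limma adjusted p = 0.065) and without the third susceptible submerged library (limma adjusted p = 0.0599). The call in controls, at 1.60 ± 0.33 (limma adjusted p = 0.0083), was lost when the second and the third susceptible control were both left out (limma adjusted p = 0.078).

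BnaA06G0298700ZS had the widest negative difference. It had 14.5, 31.9 and 17.5 RPKM in resistant and 156, 120 and 159 RPKM in susceptible submerged seedlings, and 3.92, 7.38 and 5.51 RPKM in resistant and 75.3, 74.0 and 12.3 RPKM in susceptible controls. The pools did not overlap under either treatment, while the third susceptible control was far below the other two. The average difference was -2.75 ± 0.40 (SE), and -3.16 without the third and -3.17 without the second and the third susceptible control. This member passed the level limit through the susceptible pool, since its resistant submerged libraries averaged 21.3 RPKM, so the difference is a description.

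BnaA10G0245400ZS and BnaA02G0088900ZS also had negative differences. BnaA10G0245400ZS had 80.3, 75.1 and 75.0 RPKM in resistant and 206, 137 and 136 RPKM in susceptible submerged seedlings, and 15.9, 9.47 and 17.0 RPKM in resistant and 80.5, 40.4 and 47.9 RPKM in susceptible controls. Its difference was -1.02 ± 0.27 under water and -1.90 ± 0.27 in controls (SE), where it was -2.47 without the second and the third susceptible control. At 76.8 RPKM in resistant submerged seedlings it also passed the level limit through the susceptible pool, so these values are a description. BnaA02G0088900ZS had 215, 176 and 194 RPKM in resistant and 390, 609 and 438 RPKM in susceptible submerged seedlings, and 48.8, 38.5 and 40.4 RPKM in resistant and 111, 113 and 102 RPKM in susceptible controls. For this gene the difference was -1.27 ± 0.17 under water and -1.33 ± 0.17 in controls (SE; limma adjusted p = 0.00112 and 0.000604).

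**Figure D4:**
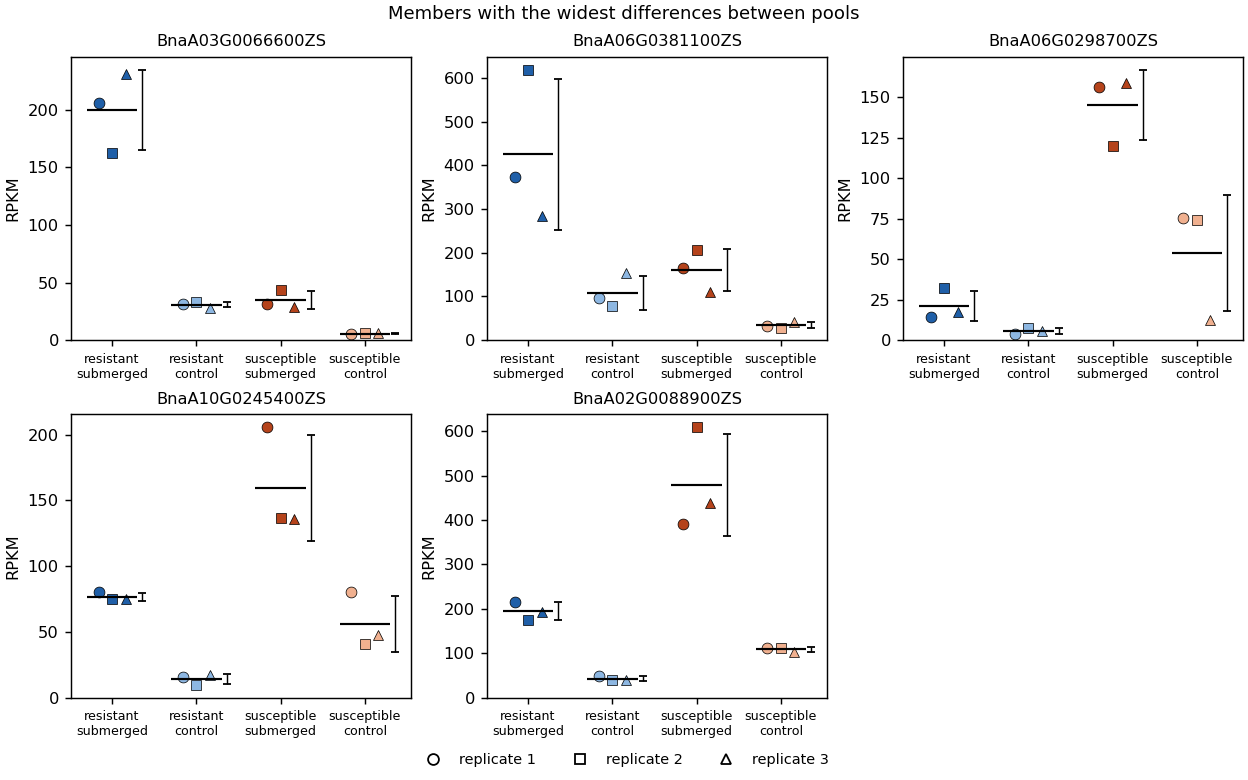
RPKM in each library of the 5 members with the widest called differences between the pools. Symbols mark the replicate, horizontal lines the mean and bars 1 SD (n = 3). BnaA03G0066600ZS and BnaA06G0381100ZS are higher in the resistant pool, and the other 3 genes are lower there, with the third susceptible control of BnaA06G0298700ZS at 12.3 RPKM against 75.3 and 74.0 RPKM.

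Summed over the members, RPKM was 27929, 27742 and 28525 in resistant and 32097, 32802 and 31721 in susceptible submerged seedlings. In controls the sums were 7017, 6779 and 6821 in resistant and 8056, 9568 and 6649 in susceptible seedlings. The pools did not overlap under water, where the members held 3.37% ± 0.0756 of all RPKM in resistant and 3.84% ± 0.0503 in susceptible seedlings (SD, n = 3 each). In controls they overlapped, with 0.814% ± 0.00773 in resistant and 0.968% ± 0.172 in susceptible seedlings (SD, n = 3 each). The sums were almost equal among resistant controls and unequal among susceptible controls. No p-value is given for these sums, because the members were chosen on their levels.

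That spread among susceptible controls ran through the members. The second control was the highest of its group in 112 members and the third the lowest in 106, or 66.3% and 62.7%, against 32.9% and 28.2% of all tested genes. The median deviation from the group mean was 0.30 in the second and -0.25 in the third control on the log2 scale, and -0.01 and 0.04 over all tested genes. At least 2-fold higher in the second than in the third control were 54 members (32.0%), against 4.07% of all tested genes and 11.4% of the other abundant genes. No member showed the opposite order by that much. The rule reads these libraries, since a low control raises the change, so no test is given and the part of this spread in the choice of members was not tested.

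Among these 54 members, the second resistant control was the highest of its group in 41, or 75.9%, against 24.3% of the other 115 members. Over all members it was the highest in 40.8%, close to the 41.5% of all tested genes. The 54 were picked on their susceptible controls, and this contrast was not tested. Of the 46 members lower in the resistant pool, 20 were among the 54, and of the 17 higher members 0 were. The median change was 2.03 for resistant and 2.08 for susceptible seedlings among the 54, and 2.04 and 1.94 among the others. BnaC01G0070400ZS, chosen after its values were seen, had 28.9, 41.5 and 8.26 RPKM in the susceptible controls, and BnaC09G0579300ZS had 30.8, 49.3 and 10.2 RPKM.

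Within groups, the members varied more than genes at large. The median SD between replicates was 0.19 in resistant submerged seedlings, 0.26 in resistant controls, 0.24 in susceptible submerged seedlings and 0.35 in susceptible controls, in log2(RPKM + 1). Over all tested genes it was 0.15, 0.18, 0.20 and 0.20 in the same groups. Most tested genes lie at lower levels, where this scale understates differences, and no SD was taken for genes at like levels. A single component held 52.7% of the members' variance within groups, and 75.5% of that component lay in the second and the third susceptible control. In the 1146 other genes that met the level limits the first component held 38.6%, with 63.0% in these libraries, and over all tested genes 28.7%, with 4.46% in them. The members were not tested against these genes.

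**Figure D5:**
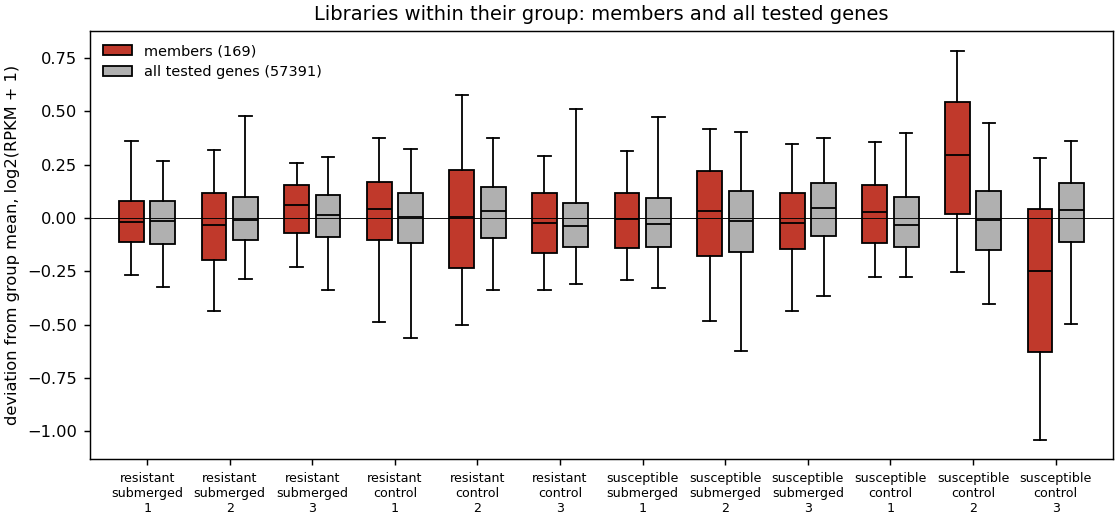
Deviation of each library from the mean of its group in log2(RPKM + 1), for the 169 members (red) and all 57391 tested genes (grey). Boxes span the quartiles with the median as a line, and whiskers reach from 5% to 95% of genes. The members' box is shifted up in the second and down in the third susceptible control, with medians of 0.30 and -0.25, and lies near 0 elsewhere.

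The members were spread over all 19 A and C chromosomes. There were 82 on A and 87 on C chromosomes, 48.5% and 51.5%, and of the tested genes on these chromosomes 48.7% were on A and 51.3% on C. Per 1000 tested genes, 3.22 were members on A and 3.24 on C. The highest rates were on A08 with 5.43, from 10 members, and on A01 with 5.41, from 13 members, and the lowest on A07 with 1.31, from 3 members, and A09 with 1.44, from 6 members. A03 and C04 held the most members, 15 each. No chance test was made of these rates, and no members were next to each other in the numbering of the identifiers. Near-identical copies on the A and C chromosomes can share reads, which makes the value of each copy uncertain.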

How the data were processed

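The authors deposited RPKM values of 12 libraries in 1 table. The submitters' processing notes name HISAT2 and StringTie. Tool versions and settings, the genome build and the annotation were not stated in the labels. Values were taken as log2(RPKM + 1), where fold changes of low genes are understated. The fit kept 57391 genes that reached 1 RPKM in 3 or more libraries, all members among them. Differences between pools were fitted with limma 3.58.1 in R 4.3.3 with a trended prior over all 12 libraries (8 residual and 3.35 prior degrees of freedom), 2-sided, with Benjamini-Hochberg adjustment over all tested genes at 0.05. The fit was also run on simulated data with noise drawn independently for each gene. Such data lack the spread between libraries that the members share, and no result of that run is used here. Responses were used to choose the members and were not tested. The members and lists were chosen with earlier results of these data known. Named members are the extremes in level, change, gap and called pool differences, and the genes nearest each limit. Relative depth was estimated from ratios of values below 1 RPKM, searched within 0.7 log2, and 64 of 66 library pairs agreed within 0.01 log2. No 2 libraries held identical values. Alternatives were another pseudocount (0.1), filters, scalings, a replicate block, fewer libraries and, chosen after seeing the data, the removal of the second and the third susceptible control together. The split of the members by the pool that reached 80 RPKM was also made after seeing the data. The gene lists could not be used without names. An exact permutation test planned for the summed RPKM is not reported, because the members were chosen with results known.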

Additional observations from a re-analysis of the deposited data

How the results depend on the processing

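The rule selected 264 genes with median ratio scaling, 155 of the 169 members among them, and 127 with quantile normalization, 125 of them members. Leaving out 1 library gave 154 to 179 genes, of which 44.9% to 49.4% were on A chromosomes. Averaged over treatments, leaving out 1 library gave 14 to 20 members higher and 34 to 74 lower in the resistant pool, and median ratio scaling 11 higher. In submerged seedlings it gave 5 to 14 higher and 6 to 29 lower, with 33 lower when only these libraries were fitted and 32 lower without the second and the third susceptible control, a setting chosen after seeing the data. In controls it gave 6 to 12 higher and 20 to 55 lower, with 6 higher by median ratio scaling, 7 with only the control libraries and 5 without those 2 controls. The causes were not tested. The summed RPKM differed by -4384 to -3844 under water and by -1939 to -480 in controls when 1 library was left out. The members' median pool difference stayed below 0 in every setting run. With the replicate number as a block, 14 members were higher and 45 lower on average, 12 and 17 in submerged seedlings, and 8 and 26 in controls. The labels do not say whether equal numbers pair the samples, and the values cannot settle it. Correlations of deviations between same-numbered libraries ran from -0.34 to 0.39 and were over 0.1 in 5 of 18 pairs. The own number correlated best in 9 of 36 cases. The unknown number of reads behind each value limits what can be said of single low values.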

Other observations

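The closest members in the numbering of the identifiers, chosen after their values were seen, were BnaA01G0111000ZS and BnaA01G0111300ZS on chromosome A01, 3 steps apart. BnaA01G0111000ZS had 149, 123 and 162 RPKM in resistant and 217, 270 and 204 RPKM in susceptible submerged seedlings, and 25.4, 32.5 and 24.0 RPKM in resistant and 67.7, 76.9 and 76.0 RPKM in susceptible controls. BnaA01G0111300ZS had 166, 112 and 162 RPKM in resistant and 237, 194 and 264 RPKM in susceptible submerged seedlings, and 24.3, 22.5 and 18.8 RPKM in resistant and 82.2, 114 and 50.2 RPKM in susceptible controls. Both were at like levels and lower in the resistant pool averaged over treatments, by a log2 difference of -1.04 ± 0.12 and -1.23 ± 0.19 (SE; limma adjusted p = 0.000107 and 0.000832; lower in 6 of 6 resistant libraries for each). Whether they share reads was not tested. In all, 4 pairs of members lay within 10 steps of each other and 8 within 20.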
